A study of Homo sapiens with 20 samples.

Results

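Clustered histone genes encode the replication-dependent histones, the proteins around which newly made DNA is packed. They were taken as all probe sets on the array whose single gene symbol names a clustered H1, H2A, H2B, H3 or H4 gene. Membership rested on the symbol and not on a measured value, but the set was chosen with earlier results of these data known. The rule gave 50 genes with 1 probe set each, among 22011 probe sets in all: 6 H1, 11 H2A, 13 H2B, 9 H3 and 11 H4 genes. In the RefSeq annotation 45 of them lie on chromosome 6, 4 on chromosome 1 (H2BC21, H2AC21, H2AC25 and H2BC26) and 1 on chromosome 12 (H4C16). RefSeq lists 69 protein-coding genes with such symbols. The other 19 have no probe set of their own in the table used, and 5 further probe sets that carry several symbols, a clustered histone gene among them, were kept apart.

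Expression was measured on 20 exon arrays in LP-1, a cell line from multiple myeloma (a cancer of plasma cells), and Raji, a cell line from Burkitt lymphoma (a cancer of B cells). Each line received a BET inhibitor at 500 nM or its inactive enantiomer, the mirror-image molecule, at 500 nM, each for 4 or 8 h, or was left untreated at 0 h. BET proteins are bromodomain proteins that bind acetylated histones and promote transcription, and the labels do not name the compound. Each of the 10 groups had 2 biological replicates, and no group treated with solvent alone at 4 or 8 h was analysed here. Both lines are established cultures, and each was studied as 1 line. Values are log2 expression per probe set, and a change is a log2 fold change with its standard error (SE). Whether fewer cells made a transcript or each cell held less of it cannot be told apart in such samples.

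Transcription of the clustered histone genes is switched on when cells begin to copy their DNA, from foci where the coactivator NPAT gathers. Their mRNAs end in a stem-loop bound by SLBP rather than in a poly(A) tail, and they are degraded when replication stops. Some members, among them H2BC21, H2BC5 and H2AC6, are known also to make polyadenylated mRNAs in cells that leave the cycle. H2A and H2B genes often stand back to back and share the stretch between them, where octamer elements bind the factor OCT1. Coding sequences of 1 histone type are nearly identical, so probes for one member may also read another. How far this affected each probe set was not tested, and values of single members carry that uncertainty. Counts and medians over the members carry it too, since members may not be independent readings.

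The 220 bases before the RefSeq start (GRCh38.p14) are printed for 5 members whose changes are described below and whose windows differ in their elements. Capitals mark matches on either strand to 3 elements: the octamer ATTTGCAT (or ATGCAAAT), the CCAAT box (CCAAT or ATTGG) and the TATA box (TATAAA or TTTATA). H2BC11 is the member called in all 4 comparisons of BET inhibitor over inactive enantiomer, H2BC21 and H2BC8 are other H2B genes with the octamer, H2BC5 is an H2B gene without it, and H4C16 holds none of the 3.
H2BC11: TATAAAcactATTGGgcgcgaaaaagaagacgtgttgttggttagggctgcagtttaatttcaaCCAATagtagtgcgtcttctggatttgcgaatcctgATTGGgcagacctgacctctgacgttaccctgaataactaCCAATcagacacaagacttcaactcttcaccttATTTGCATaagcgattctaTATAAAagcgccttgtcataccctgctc
H2BC21: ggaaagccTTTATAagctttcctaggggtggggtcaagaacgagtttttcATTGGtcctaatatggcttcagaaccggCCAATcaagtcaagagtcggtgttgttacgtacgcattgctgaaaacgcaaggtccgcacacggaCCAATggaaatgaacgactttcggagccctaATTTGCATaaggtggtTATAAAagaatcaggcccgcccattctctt
H2BC5: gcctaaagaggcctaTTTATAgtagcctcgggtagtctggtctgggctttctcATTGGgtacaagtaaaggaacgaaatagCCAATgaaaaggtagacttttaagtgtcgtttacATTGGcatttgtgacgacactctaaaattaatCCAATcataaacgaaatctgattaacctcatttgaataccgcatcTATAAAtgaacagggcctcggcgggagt
H2BC8: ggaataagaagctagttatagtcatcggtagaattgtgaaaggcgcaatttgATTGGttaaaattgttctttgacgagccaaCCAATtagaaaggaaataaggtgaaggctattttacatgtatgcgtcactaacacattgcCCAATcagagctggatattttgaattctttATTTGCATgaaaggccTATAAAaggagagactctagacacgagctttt
H4C16: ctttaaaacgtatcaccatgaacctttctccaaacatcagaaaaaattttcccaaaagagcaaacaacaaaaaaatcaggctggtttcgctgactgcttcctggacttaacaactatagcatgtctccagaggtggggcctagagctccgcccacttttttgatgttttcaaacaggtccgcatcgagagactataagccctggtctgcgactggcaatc
The first window lies at chr6:27132796-27133015 on the minus strand, the second at chr1:149886683-149886902 on the minus strand, and the window of H2BC5 at chr6:26157901-26158120 on the plus strand. Those of H2BC8 and H4C16 lie at chr6:26216689-26216908 and chr12:14771132-14771351, both on the minus strand. The octamer's nearest base lies 40, 39 and 41 bases before the start in H2BC11, H2BC21 and H2BC8.

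Windows were found for 45 of the 50 genes. An octamer was present in 10 of 13 H2B windows (76.9%) and 8 of 10 H2A windows (80.0%), and in 0 of the H1, H3 and H4 windows, against 398 of 27305 promoters of the same length in RefSeq (1.46%). CCAAT boxes were present in 39 of the 45 windows (86.7%), against 30.6% of all promoters, and TATA boxes in 28 (62.2%), against 9.9%. Of the 12 windows of genes called in any comparison of BET inhibitor over inactive enantiomer, 7 held the octamer (58.3%), as did 11 of the 33 windows of genes not called (33.3%). Since only H2A and H2B windows held it, these shares depend on the mix of histone types, and their difference was not tested. H2BC11 and its back-to-back partner H2AC11 share 193 bases of their windows, read on opposite strands, so both windows hold the same octamer. These matches describe letters and not occupied sites.

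The comparison of the BET inhibitor with its inactive enantiomer asks what depends on the active form of the molecule. Several H2B and H2A genes were higher with the BET inhibitor, most of them in LP-1, and no clustered histone gene was called lower in either line. In LP-1, 5 of 50 genes were higher at 4 h and 12 at 8 h. In Raji, 2 were higher at each time. Leaving out 1 array gave 1 to 4 and 5 to 7 in LP-1, and 0 to 2 and 1 to 2 in Raji. A gene is called at an adjusted p under 0.05 from limma, adjusted over all 22011 probe sets. The called shares of the members were 10.0% and 24.0% in LP-1 at 4 and 8 h, and 4.0% at each time in Raji. Of all probe sets, 0.377% and 3.76% were called higher in LP-1 at 4 and 8 h, and 1.44% and 0.827% in Raji. The shares called lower were 1.9% and 1.97% in LP-1, and 0.341% and 1.05% in Raji. In either direction 2.28%, 5.73%, 1.78% and 1.88% of all probe sets were called in LP-1 at 4 h, LP-1 at 8 h, Raji at 4 h and Raji at 8 h.

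The whole set of members leaned the same way. Their median log2 fold change was 0.45 in LP-1 at 4 h and 0.58 at 8 h, beside -0.04 and 0.06 for all probe sets. In Raji it was 0.29 at 4 h and 0.27 at 8 h, beside 0.01 and 0.0. Both inhibitor arrays lay above both inactive arrays for 31, 27, 23 and 22 of the 50 genes in LP-1 at 4 h, LP-1 at 8 h, Raji at 4 h and Raji at 8 h. The same held for 17.6%, 27.9%, 23.5% and 20.3% of all probe sets. Both inhibitor arrays lay below both inactive arrays for 0, 4, 3 and 1 genes, beside 26.4%, 16.3%, 20.2% and 20% of all probe sets. For 24 genes the fold change was positive in all 4 comparisons (48.0%, against 10.1% of all probe sets). For 11 genes both inhibitor arrays were above both inactive arrays in all 4 comparisons, against 1.55% of all probe sets: H2BC11, H2BC21, H2BC5, H2BC8, H2AC11, H2AC6, H2AC17, H3C8, H4C3, H4C16 and H1-2. The grid of fold changes by histone type shows this lean and the few genes that carry the largest values.

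**Figure D1:**
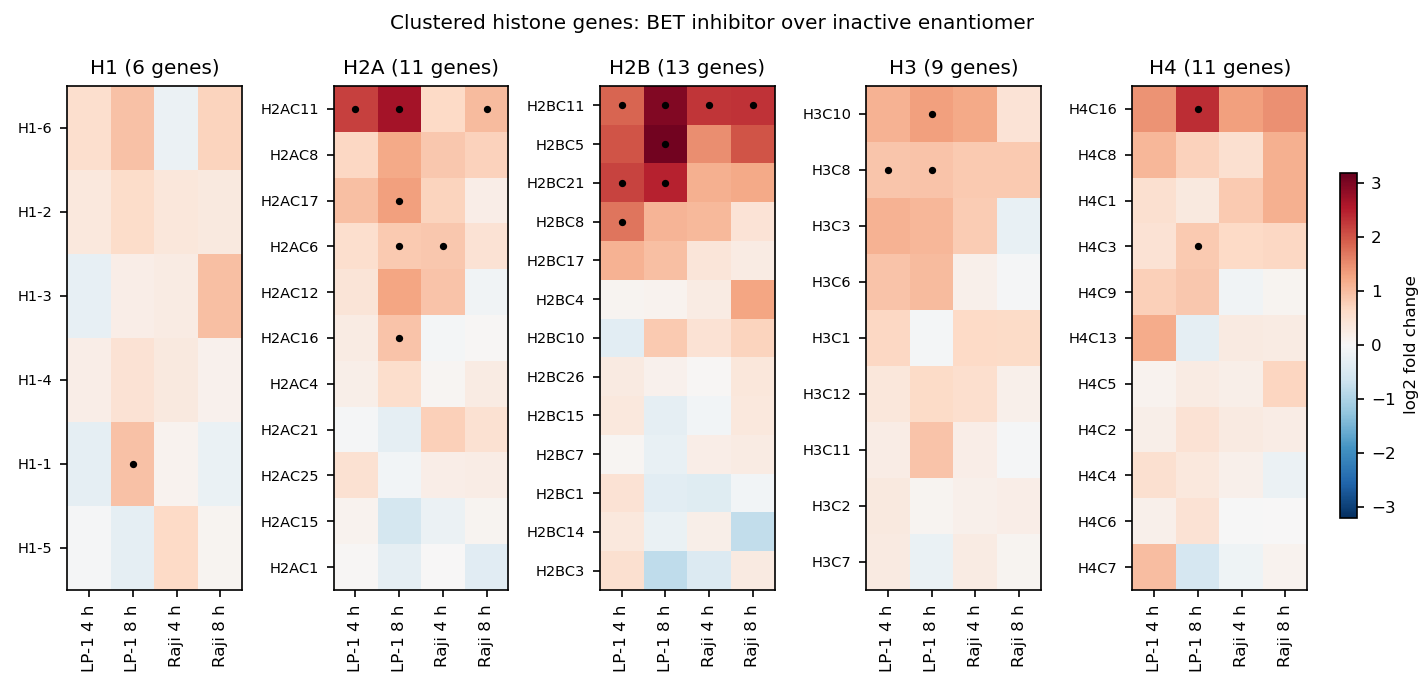
Log2 fold change of BET inhibitor over inactive enantiomer for the 50 clustered histone genes, 1 panel per histone type, with 1 row per gene and 1 column per line and time; red is higher with the inhibitor and dots mark an adjusted p under 0.05. Most cells are red in each panel, and H2BC11 is the 1 gene with a dot in all 4 columns.

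H2BC11, an H2B gene, was the 1 member called higher in all 4 comparisons. In LP-1 it read 7.77 and 8.37 after 4 h and 8.83 and 8.78 after 8 h of inhibitor, against 6.27 and 6.16 and then 5.50 and 6.19 with the inactive enantiomer and 6.36 and 6.65 in untreated cells. The Raji arrays gave 5.83 and 5.97 with the inhibitor at 4 h and 5.97 and 5.87 at 8 h, against 3.91 and 3.31 and then 4.15 and 3.08 with the inactive enantiomer and 3.74 and 3.87 without treatment. The inhibitor arrays stood apart from the inactive and untreated arrays in both lines, and Raji had the lower level in each group. In Raji, replicate 2 of both inactive groups and untreated replicate 1 lay below the lower quartiles of their arrays (3.767, 3.766 and 3.767). Whether such levels are above background was not tested, so the Raji changes are not exact folds. The log2 fold change over the inactive enantiomer was 1.85 ± 0.32 in LP-1 at 4 h (95% interval 1.15 to 2.56, adjusted p = 0.0108) and 2.96 ± 0.32 in LP-1 at 8 h (95% interval 2.25 to 3.66, adjusted p = 0.000272). The other line gave 2.29 ± 0.32 in Raji at 4 h (95% interval 1.58 to 2.99, adjusted p = 0.00573) and 2.30 ± 0.32 in Raji at 8 h (95% interval 1.60 to 3.0, adjusted p = 0.00497). By size of its fold change H2BC11 ranked 22 and 13 of all probe sets in LP-1 at 4 and 8 h, and 12 and 8 in Raji. Leaving out either inactive array ended the call in LP-1 at 4 h (adjusted p up to 0.106), and leaving out inhibitor replicate 2 ended it in Raji at 4 h (adjusted p = 0.0739).

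H2AC11 encodes an H2A histone and is the partner that faces H2BC11. The LP-1 arrays gave 8.96 and 9.43 with the inhibitor at 4 h and 9.62 and 9.87 at 8 h, against 6.91 and 7.11 and then 6.95 and 7.21 with the inactive enantiomer and 7.23 and 7.38 without treatment. In Raji it read 6.76 and 7.04 after 4 h and 7.28 and 6.90 after 8 h of inhibitor, against 6.20 and 6.33 and then 5.89 and 6.27 with the inactive enantiomer and 5.87 and 6.32 in untreated cells. Inhibitor arrays were above all other arrays in either line, and the gap was wider in LP-1. Its fold change was 2.18 ± 0.22 in LP-1 at 4 h (95% interval 1.72 to 2.65, adjusted p = 0.000485) and 2.66 ± 0.22 in LP-1 at 8 h (95% interval 2.20 to 3.13, adjusted p = 6.82e-05), and these were the smallest adjusted p-values among the members in LP-1. The other line gave 0.64 ± 0.22 in Raji at 4 h (95% interval 0.17 to 1.11, adjusted p = 0.181), which was not called, and 1.01 ± 0.22 in Raji at 8 h (95% interval 0.54 to 1.48, adjusted p = 0.0348). The Raji call was lost without any 1 of its 4 arrays (adjusted p 0.0734 to 0.214).

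H2BC21, an H2B gene on chromosome 1, was called in LP-1 at both times. With the inhibitor, LP-1 cells had 9.37 and 8.77 at 4 h and 8.69 and 10.14 at 8 h, against 6.76 and 7.03 at 4 h and 7.02 and 6.86 at 8 h with the inactive enantiomer and 7.27 and 7.36 when untreated. In the other line, Raji cells had 6.48 and 6.22 with the inhibitor at 4 h and 6.49 and 6.20 at 8 h, against 5.04 and 5.40 and then 5.15 and 5.14 with the inactive enantiomer and 5.99 and 5.90 when untreated. Inhibitor arrays were above all other arrays of the same line, although the replicates at 8 h in LP-1 lay far apart. The fold change was 2.17 ± 0.35 in LP-1 at 4 h (95% interval 1.41 to 2.92, adjusted p = 0.00726) and 2.47 ± 0.35 in LP-1 at 8 h (95% interval 1.71 to 3.22, adjusted p = 0.00173). The inactive arrays lay below the untreated ones in both lines. Raji cells gave 1.13 ± 0.35 in Raji at 4 h (95% interval 0.37 to 1.88, adjusted p = 0.139) and 1.20 ± 0.35 in Raji at 8 h (95% interval 0.45 to 1.96, adjusted p = 0.12), neither of which was called. The call at 4 h was lost without inhibitor replicate 1 or either inactive array (adjusted p up to 0.0871).

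H2BC5, also an H2B gene, had the largest single fold change of the set. In LP-1 it read 8.35 and 9.21 after 4 h and 9.34 and 10.05 after 8 h of inhibitor, against 6.66 and 6.89 and then 6.48 and 6.73 with the inactive enantiomer and 7.20 and 6.97 in untreated cells. With the inhibitor, Raji cells had 7.54 and 8.19 at 4 h and 7.94 and 7.83 at 8 h, against 5.69 and 7.05 at 4 h and 6.60 and 5.13 at 8 h with the inactive enantiomer and 5.41 and 6.89 when untreated. Inhibitor arrays were above all other arrays of the same line. In Raji the replicates of both inactive groups and of the untreated group differed by more than 1 log2 unit. Its fold change was 3.09 ± 0.57 in LP-1 at 8 h (95% interval 1.85 to 4.33, adjusted p = 0.00831), the one call for this gene, lost without inhibitor replicate 2 or inactive replicate 1 (adjusted p up to 0.0599). It was 2.01 ± 0.57 in LP-1 at 4 h (95% interval 0.77 to 3.24, adjusted p = 0.0989), 1.49 ± 0.57 in Raji at 4 h (95% interval 0.26 to 2.73, adjusted p = 0.244) and 2.02 ± 0.57 in Raji at 8 h (95% interval 0.78 to 3.26, adjusted p = 0.109).

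H2BC8 encodes another H2B histone. The LP-1 arrays gave 5.74 and 6.73 with the inhibitor at 4 h and 5.86 and 6.13 at 8 h, against 4.18 and 4.86 and then 4.48 and 5.34 with the inactive enantiomer and 4.95 and 5.18 without treatment. With the inhibitor, Raji cells had 6.24 and 6.97 at 4 h and 6.62 and 6.63 at 8 h, against 5.42 and 5.73 at 4 h and 6.26 and 6.14 at 8 h with the inactive enantiomer and 5.70 and 6.07 when untreated. Inhibitor arrays were above the inactive arrays of the same time and above the untreated arrays in both lines. H2BC8 changed by 1.71 ± 0.36 in LP-1 at 4 h (95% interval 0.93 to 2.50, adjusted p = 0.0271), the one call, lost without inhibitor replicate 2 or either inactive array (adjusted p up to 0.262). It was 1.09 ± 0.36 in LP-1 at 8 h (95% interval 0.31 to 1.87, adjusted p = 0.109), 1.03 ± 0.36 in Raji at 4 h (95% interval 0.25 to 1.81, adjusted p = 0.197) and 0.43 ± 0.36 in Raji at 8 h (95% interval -0.35 to 1.21, adjusted p = 0.735).

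**Figure D2:**
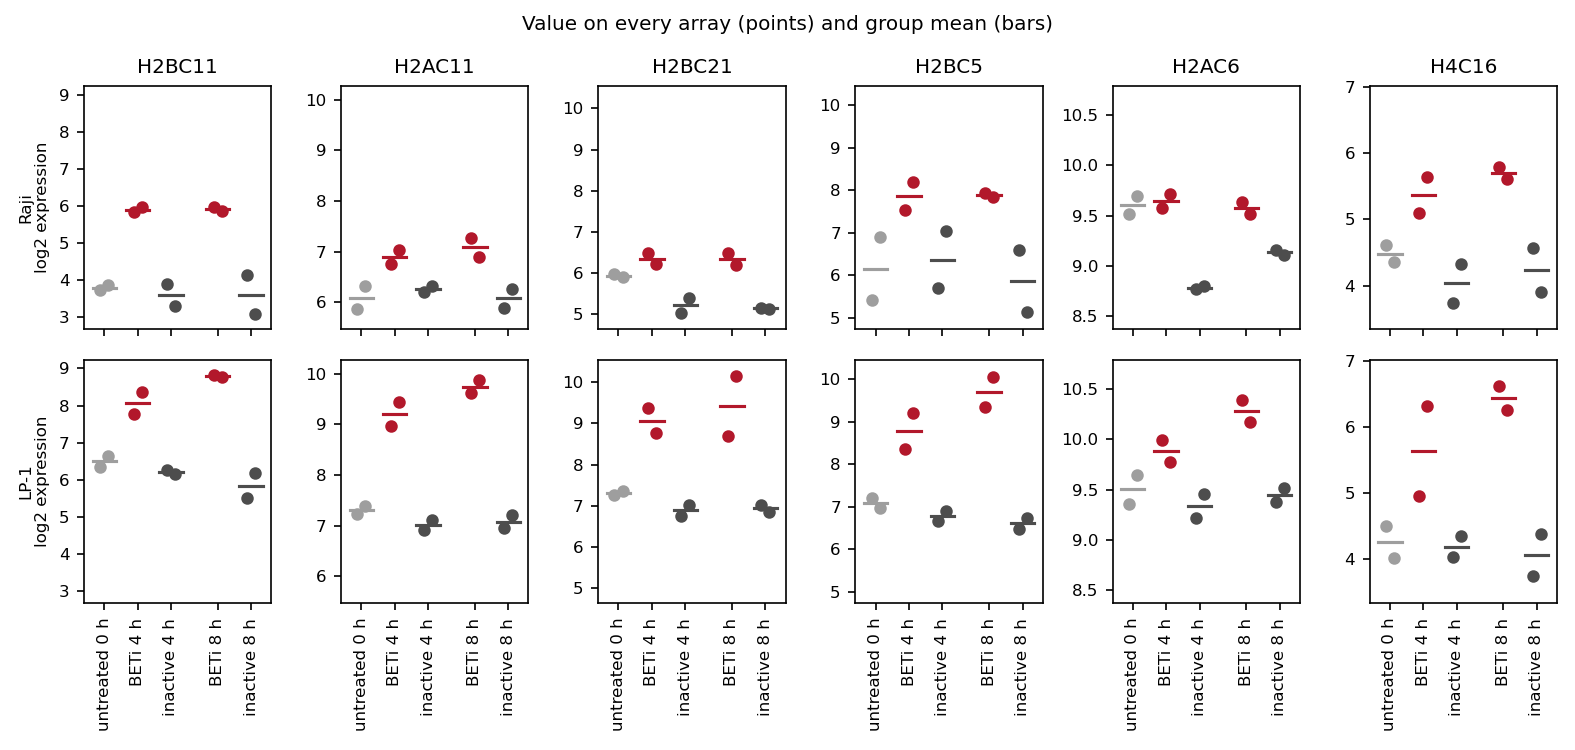
Log2 expression on every array (points) and group means (bars) for 6 of the 13 genes called in any comparison, Raji above and LP-1 below; both rows of a gene share 1 scale. BETi is the BET inhibitor and inactive its enantiomer. In H2BC11 and H2AC11 the inhibitor points lie above all other points of the same line, while H2AC6 in Raji has inhibitor and untreated points at one height and inactive points below them.

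The plot of values by array shows a different pattern for H2AC6, an H2A gene. With the inhibitor, LP-1 cells had 9.99 and 9.77 at 4 h and 10.39 and 10.17 at 8 h, against 9.22 and 9.46 at 4 h and 9.38 and 9.52 at 8 h with the inactive enantiomer and 9.36 and 9.65 when untreated. The Raji arrays gave 9.58 and 9.72 with the inhibitor at 4 h and 9.64 and 9.52 at 8 h, against 8.77 and 8.80 and then 9.16 and 9.11 with the inactive enantiomer and 9.52 and 9.70 without treatment. In LP-1 the inhibitor arrays were the high ones. In Raji the inactive arrays were the low ones and the inhibitor arrays overlapped the untreated ones. The fold change over the inactive enantiomer was 0.83 ± 0.14 in LP-1 at 8 h (95% interval 0.52 to 1.14, adjusted p = 0.00586) and 0.87 ± 0.14 in Raji at 4 h (95% interval 0.56 to 1.18, adjusted p = 0.0117), both called. The call in LP-1 was lost without replicate 1 of either compound (adjusted p up to 0.0531), and that in Raji without inhibitor replicate 2 or either inactive array (adjusted p up to 0.132). At the other time of each line it was 0.54 ± 0.14 in LP-1 at 4 h (95% interval 0.23 to 0.85, adjusted p = 0.0769) and 0.45 ± 0.14 in Raji at 8 h (95% interval 0.14 to 0.76, adjusted p = 0.164).

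The H2A genes H2AC16 and H2AC17 were called in LP-1 at 8 h alone. For H2AC16, LP-1 cells had 6.74 and 6.70 with the inhibitor at 4 h and 7.07 and 6.74 at 8 h, against 6.24 and 6.67 and then 6.23 and 5.79 with the inactive enantiomer and 6.61 and 6.55 when untreated. The Raji arrays gave 10.56 and 10.59 with the inhibitor at 4 h and 10.86 and 10.56 at 8 h, against 10.38 and 10.90 and then 10.48 and 10.87 with the inactive enantiomer and 10.89 and 11.02 without treatment. In LP-1 the inhibitor arrays were above all others, by little at 4 h. In Raji the inhibitor and inactive arrays overlapped, and all inhibitor arrays lay below both untreated arrays. The called change was 0.90 ± 0.22 in LP-1 at 8 h (95% interval 0.42 to 1.37, adjusted p = 0.0316). For H2AC17, LP-1 cells had 5.92 and 5.88 with the inhibitor at 4 h and 5.91 and 6.76 at 8 h, against 4.80 and 5.07 and then 5.13 and 4.94 with the inactive enantiomer and 5.01 and 5.43 when untreated. With the inhibitor, Raji cells had 5.08 and 5.51 at 4 h and 5.40 and 5.07 at 8 h, against 4.36 and 4.84 at 4 h and 4.99 and 5.04 at 8 h with the inactive enantiomer and 4.24 and 5.18 when untreated. Inhibitor arrays were above inactive arrays throughout, by little at 8 h in Raji. The call for H2AC16 was lost without inhibitor replicate 1 or inactive replicate 2 (adjusted p up to 0.212), and that for H2AC17 without inhibitor replicate 2 or either inactive array (adjusted p up to 0.199). The called change was 1.30 ± 0.32 in LP-1 at 8 h (95% interval 0.60 to 2.0, adjusted p = 0.0336).

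Among the H3 genes, H3C8 was called at both times in LP-1. The LP-1 arrays gave 8.0 and 8.0 with the inhibitor at 4 h and 7.86 and 8.21 at 8 h, against 6.89 and 7.33 and then 6.96 and 7.28 with the inactive enantiomer and 7.26 and 7.41 without treatment. In Raji it read 7.17 and 7.48 after 4 h and 7.39 and 7.47 after 8 h of inhibitor, against 6.26 and 6.68 and then 6.57 and 6.58 with the inactive enantiomer and 7.08 and 6.67 in untreated cells. Inhibitor arrays were above all other arrays of the same line. The fold change was 0.89 ± 0.21 in LP-1 at 4 h (95% interval 0.44 to 1.33, adjusted p = 0.0428) and 0.91 ± 0.21 in LP-1 at 8 h (95% interval 0.47 to 1.36, adjusted p = 0.0223). The other line gave 0.85 ± 0.21 in Raji at 4 h (95% interval 0.41 to 1.30, adjusted p = 0.0583) and 0.85 ± 0.21 in Raji at 8 h (95% interval 0.41 to 1.30, adjusted p = 0.059), neither of which was called. H3C10 was called in LP-1 at 8 h. With the inhibitor, LP-1 cells had 5.43 and 6.16 at 4 h and 6.26 and 6.19 at 8 h, against 4.38 and 4.99 at 4 h and 4.84 and 5.0 at 8 h with the inactive enantiomer and 5.48 and 5.54 when untreated. The Raji arrays gave 5.70 and 5.91 with the inhibitor at 4 h and 6.30 and 5.48 at 8 h, against 4.91 and 4.27 and then 5.17 and 5.72 with the inactive enantiomer and 5.58 and 5.70 without treatment. The arrays overlapped in Raji at 8 h and were separate in the other 3 comparisons. The calls for H3C8 at 4 h and H3C10 at 8 h were lost without any 1 of their 4 arrays (adjusted p up to 0.353 and 0.152), and that for H3C8 at 8 h without inhibitor replicate 2 or inactive replicate 1 (adjusted p up to 0.146). The fold change was 1.31 ± 0.32 in LP-1 at 8 h (95% interval 0.62 to 2.0, adjusted p = 0.0316).

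Of the H4 genes, H4C16 and H4C3 were called, both in LP-1 at 8 h. H4C16 stands alone on its chromosome, away from the other members. In LP-1 it read 4.95 and 6.31 after 4 h and 6.61 and 6.25 after 8 h of inhibitor, against 4.04 and 4.35 and then 3.75 and 4.39 with the inactive enantiomer and 4.51 and 4.02 in untreated cells. The Raji arrays gave 5.09 and 5.64 with the inhibitor at 4 h and 5.79 and 5.60 at 8 h, against 3.74 and 4.33 and then 4.56 and 3.91 with the inactive enantiomer and 4.61 and 4.35 without treatment. All inhibitor arrays were above the inactive arrays, with replicates far apart at 4 h in LP-1. Inactive replicate 1 at 8 h in LP-1 (3.75) lay below the lower quartile of its array (3.796). Whether such a level is above background was not tested. The fold change was 2.36 ± 0.40 in LP-1 at 8 h (95% interval 1.48 to 3.23, adjusted p = 0.00561). It was 1.44 ± 0.40 in LP-1 at 4 h (95% interval 0.56 to 2.31, adjusted p = 0.0943), 1.32 ± 0.40 in Raji at 4 h (95% interval 0.45 to 2.19, adjusted p = 0.132) and 1.46 ± 0.40 in Raji at 8 h (95% interval 0.59 to 2.33, adjusted p = 0.0992), none of them called. The call was lost without inactive replicate 1 (adjusted p = 0.055). For H4C3, LP-1 cells had 9.90 and 9.84 with the inhibitor at 4 h and 10.11 and 9.82 at 8 h, against 9.13 and 9.72 and then 9.38 and 8.87 with the inactive enantiomer and 9.51 and 9.69 when untreated. In Raji it read 9.68 and 9.76 after 4 h and 9.94 and 10.04 after 8 h of inhibitor, against 8.94 and 9.23 and then 9.52 and 9.13 with the inactive enantiomer and 9.91 and 9.74 in untreated cells. The inhibitor arrays were above the inactive arrays in each comparison and overlapped the untreated ones in Raji at 4 h. The call was lost without either inhibitor array or inactive replicate 2 (adjusted p up to 0.263). The called change was 0.84 ± 0.22 in LP-1 at 8 h (95% interval 0.37 to 1.32, adjusted p = 0.0416).

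H1-1 was the only linker histone gene called over the inactive enantiomer at a single time, in LP-1 at 8 h. With both times averaged it was not called in LP-1 (0.33 ± 0.16, limma, adjusted p = 0.291). With the inhibitor, LP-1 cells had 4.24 and 3.63 at 4 h and 4.52 and 4.37 at 8 h, against 4.02 and 4.41 at 4 h and 3.63 and 3.39 at 8 h with the inactive enantiomer and 3.73 and 3.72 when untreated. The Raji arrays gave 4.14 and 4.20 with the inhibitor at 4 h and 4.28 and 4.33 at 8 h, against 4.19 and 3.94 and then 4.85 and 4.18 with the inactive enantiomer and 4.03 and 4.04 without treatment. Inhibitor and inactive arrays were separate in LP-1 at 8 h and overlapped in the other 3 comparisons. Its call was lost without any 1 of the 4 arrays (adjusted p up to 0.173). The fold change was 0.93 ± 0.23 in LP-1 at 8 h (95% interval 0.44 to 1.43, adjusted p = 0.0312), and -0.28 ± 0.23 in LP-1 at 4 h (95% interval -0.77 to 0.21, adjusted p = 0.648). In LP-1 the inactive arrays at 8 h and the untreated arrays lay below the lower quartiles of their arrays (3.781 to 3.824). Whether such levels are above background was not tested.

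**Figure D3:**
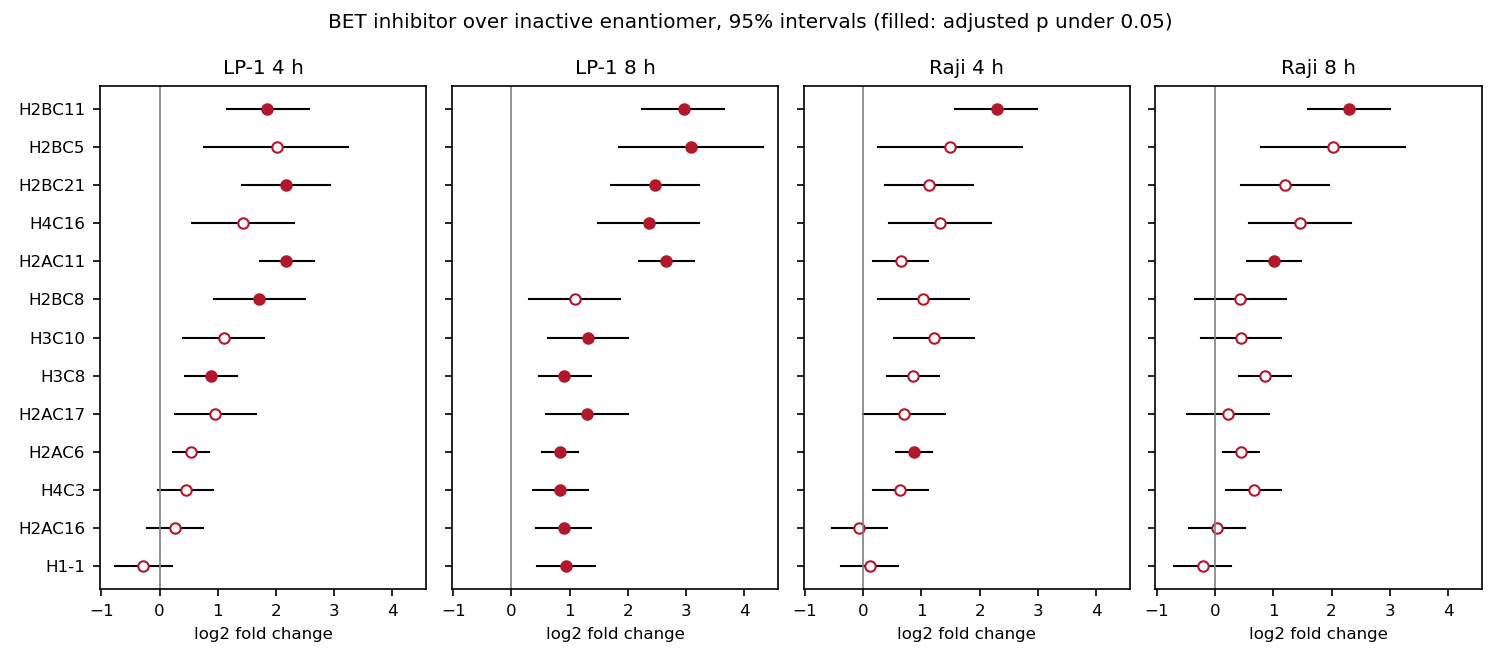
Log2 fold change of BET inhibitor over inactive enantiomer (points) with 95% intervals (lines) for the 13 genes called in any of the 4 comparisons, ordered by their mean over the 4; filled points have an adjusted p under 0.05. H2BC11 keeps a value of 1.85 or more in each panel, while H2AC16 and H1-1 lie between -0.28 and 0.27 in 3 of the 4.

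The plot of fold changes with their intervals shows that many open points lie clear of 0 although they were not called. Of the 50 genes, 18, 22, 15 and 17 were higher at an unadjusted p under 0.05 in LP-1 at 4 h, LP-1 at 8 h, Raji at 4 h and Raji at 8 h, and 0, 2, 0 and 0 were lower. Of all probe sets, 14.3%, 18.9%, 14.1% and 13.0% had such a p in either direction. Averaging the response over 4 and 8 h, a comparison added after the values were seen, called 17 members higher in LP-1 (2.62% of all probe sets) and 12 in Raji (4.3%), and 0 lower in either line (4.44% and 1.99%). Outside the 13 genes called at a single time, these were H2BC17, H2AC8, H3C6, H4C9 and H1-2 in LP-1, and H4C1, H2AC21 and H1-3 in Raji. Leaving out 1 of the 8 arrays of LP-1 ended the call of H1-2 in 8 cases, H2AC8 in 7, H4C9 in 6, and H2BC17 and H3C6 in 5 each. In Raji it ended that of H1-3 in 8 cases, H4C1 in 7 and H2AC21 in 6. For 9 genes both lines gave a call: H2BC11, H2BC21, H2BC5, H2AC11, H2AC6, H3C8, H3C10, H4C3 and H4C16. The share of all probe sets called in both lines was not counted, so this number has no background beside it. Leaving out 1 of the 8 arrays gave 10 to 15 calls in LP-1 and 5 to 10 in Raji. Of these 9 genes, H4C3 lost its call in LP-1 in 4 of the 8 cases. In Raji H3C10 lost it in 6 cases (adjusted p up to 0.171, and 0.0488 with all arrays), H4C3 in 6, H2BC5 in 5, H2BC21 in 3 and H4C16 in 2, while H2BC11, H2AC11, H2AC6 and H3C8 kept it in all 8 cases in both lines.

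Of the 13 H2B genes, 3 were higher in LP-1 at each time and 1 in Raji at each time. The highest value of the type was 3.09 (H2BC5) in LP-1 at 8 h. The lowest, -0.82, belonged to H2BC3, whose arrays read 1.69 and 1.40 with the inhibitor, against 1.41 and 3.33 with the inactive enantiomer. Its mean over the 20 arrays lies at percentile 1.1, so this value shows no fall. Of the 11 H2A genes, 1, 4, 1 and 1 were higher in LP-1 at 4 h, LP-1 at 8 h, Raji at 4 h and Raji at 8 h, with 0.83 as the type's median in LP-1 at 8 h. Of the 9 H3 genes, 1 and 2 were higher in LP-1 and 0 in Raji, although each H3 gene had a positive value at 4 h in both lines (0.23 to 1.11 in LP-1, 0.17 to 1.21 in Raji). Of the 11 H4 genes, 2 were higher in LP-1 at 8 h and 0 elsewhere, with values of 0.11 to 1.44 in LP-1 at 4 h. H1 genes had 1 call and the lowest median at 4 h in LP-1, 0.09. The germ-line genes H2AC1 and H2BC1, known for their use in the testis, had no call and fold changes between -0.40 and 0.46. H1-6, a linker histone gene also known from the testis, was not called either. Averaged over both times it had 0.73 ± 0.23 in LP-1 (limma, adjusted p = 0.0781) and 0.26 ± 0.23 in Raji (limma, adjusted p = 0.644). H4C8, not called, reached 1.15 ± 0.41 in Raji at 8 h (95% interval 0.26 to 2.04, adjusted p = 0.218). H2BC4 had 1.25 ± 0.53 in Raji at 8 h (95% interval 0.11 to 2.40, adjusted p = 0.319), where its inhibitor arrays read 8.56 and 8.51, against 8.42 and 6.14 with the inactive enantiomer. The low inactive array, replicate 2, thus carries that value, and neither gene passed the adjustment over all probe sets.

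Both genes of a back-to-back pair are members in 7 cases. In the pair H2BC11 and H2AC11 the log2 fold changes were 1.85 and 2.18 in LP-1 at 4 h, and 2.96 and 2.66 at 8 h. In Raji they were 2.29 and 0.64 at 4 h, and 2.30 and 1.01 at 8 h, so that the H2B partner had the larger value there. H2BC8 and H2AC8 had 1.71 and 0.65 in LP-1 at 4 h, and 1.09 and 1.22 at 8 h. In Raji they had 1.03 and 0.87 at 4 h, and 0.43 and 0.74 at 8 h. H2BC17 and H2AC17 had 1.11 and 0.96 in LP-1 at 4 h, and 0.97 and 1.30 at 8 h, and in Raji 0.38 and 0.70 at 4 h, and 0.26 and 0.22 at 8 h. H2BC4 and H2AC6 had 0.09 and 0.54 in LP-1 at 4 h, and 0.12 and 0.83 at 8 h. In Raji this pair had 0.25 and 0.87 at 4 h, and 1.25 and 0.45 at 8 h, the last with the low inactive array of H2BC4 named above. Of that pair only H2AC6 was called, in LP-1 at 8 h and in Raji at 4 h. The pairs H2BC26 and H2AC25, H2BC1 and H2AC1, and H2BC15 and H2AC15 had no call, with all 24 values between -0.56 and 0.48. No difference between partners was tested, since each has its own probe set.

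**Figure D4:**
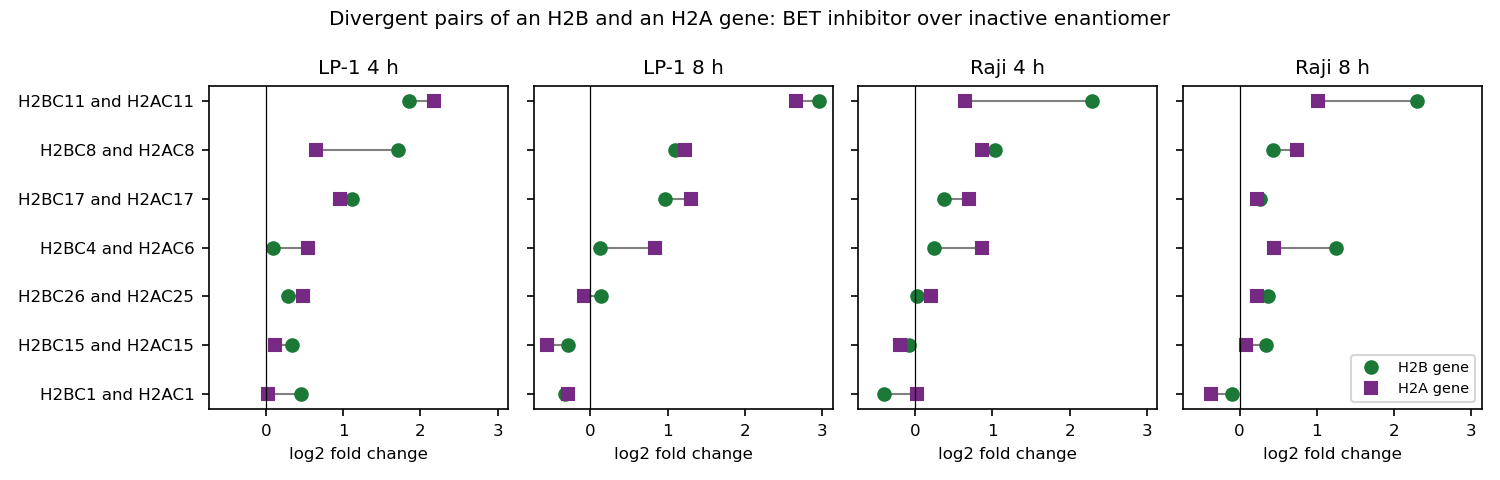
Log2 fold change of BET inhibitor over inactive enantiomer for the H2B gene (circle) and the H2A gene (square) of 7 back-to-back pairs, 1 panel per line and time. The symbols of H2BC11 and H2AC11 lie close together in LP-1 (1.85 and 2.18 at 4 h) and far apart in Raji (2.29 and 0.64 at 4 h).

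The response differed between lines for 1 gene when both times were averaged, a comparison added after the values were seen. H2AC11 responded less in Raji than in LP-1, with a difference of -1.60 ± 0.22 (95% interval -2.07 to -1.13, adjusted p = 0.00599, limma). Of all probe sets, 0.404% were called lower in that comparison and 0.541% higher. The partner H2BC11 gave -0.11, and 7 members had an unadjusted p under 0.05 (12.9% of all probe sets). Within single times no member was called. The difference for H2AC11 was -1.55 at 4 h (adjusted p = 0.0741) and -1.65 at 8 h (adjusted p = 0.0507). At an unadjusted p under 0.05 there were 3 members at 4 h and 10 at 8 h, beside 15.2% and 9.04% of all probe sets. The response at 8 h minus that at 4 h gave no called member in LP-1 or Raji. There 5 and 2 members had an unadjusted p under 0.05, beside 13.2% and 5.71% of all probe sets, and the lowest adjusted p-values were 0.151 and 0.857.

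Set against untreated cells, which differ in time in culture as well as in compound, the inactive enantiomer gave lower values for most members and no call by limma. In LP-1, 0.0136% of all probe sets were called at 4 h (0.00909% higher, 0.00454% lower) and 0.504% at 8 h (0.0454% higher, 0.459% lower), and in Raji 0.0%. Members had a median of -0.26 in LP-1 at 4 h, -0.16 in LP-1 at 8 h, -0.37 in Raji at 4 h and -0.25 in Raji at 8 h, beside -0.03, -0.08, -0.04 and 0.0 for all probe sets. Both inactive arrays lay below both untreated arrays for 15, 17, 26 and 19 of the 50 genes, against 25.5%, 32.9%, 24.7% and 17.8% of all probe sets. In LP-1 these counts are near the background, and in Raji they are above it. Both inactive arrays lay above both untreated arrays for 2, 4, 2 and 3 genes, against 15.5%, 13.8%, 14.3% and 17.4%. At an unadjusted p under 0.05 there were 3, 7, 11 and 9 members, of which 0, 1, 1 and 0 were higher, beside 4.95%, 15.1%, 7.91% and 4.52% of all probe sets in either direction. H4C1 had the values -1.14 ± 0.33 in Raji at 4 h (95% interval -1.85 to -0.42, adjusted p = 0.462) and -1.26 ± 0.33 in Raji at 8 h (95% interval -1.98 to -0.55, adjusted p = 0.721). H2AC12 had -1.79 ± 0.50 in LP-1 at 8 h (95% interval -2.86 to -0.72, adjusted p = 0.126). H2AC6 had -0.83 ± 0.14 in Raji at 4 h (95% interval -1.14 to -0.52, adjusted p = 0.249), in a comparison in which 0 of all probe sets were called.

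The BET inhibitor over untreated cells shares its inhibitor arrays with the main comparison and its untreated arrays with the one above. It called 3 members higher in LP-1 at 4 h and 7 at 8 h, and 1 and 2 in Raji, with 0 lower in each. Of all probe sets, 0.727%, 1.97%, 0.663% and 1.04% were higher and 6.0%, 5.68%, 0.595% and 1.22% lower, in all 6.73%, 7.66%, 1.26% and 2.26%. H2BC11 was higher in all 4, with differences of 1.56 (4 h) and 2.30 (8 h) in LP-1, and 2.09 (4 h) and 2.11 (8 h) in Raji. For H2AC11 the differences were 1.89 (4 h) and 2.44 (8 h) in LP-1, and 1.0 in Raji at 8 h. H2BC21 was higher in LP-1 by 1.75 and 2.10. At 8 h in LP-1, H2BC5 (2.61), H4C16 (2.16), H2AC6 (0.77) and H1-4 (0.59) were higher too. Members had a median of 0.22 and 0.30 in LP-1, and of -0.01 and 0.04 in Raji. Against untreated cells the lean of the whole set was 0.22 or more in LP-1 and near 0 in Raji, where H2BC11 was called at both times. That call was lost at 4 h without any 1 of its 4 arrays (adjusted p 0.0611 to 0.112) and at 8 h without 3 of them (up to 0.0584). H2AC11 in Raji and H1-4 in LP-1 at 8 h also lost theirs without any 1 of 4 arrays (adjusted p up to 0.243 and 0.185). At 4 h in LP-1 H2BC21 and H2BC11 lost theirs in 3 of 4 cases, as did H2BC5 at 8 h, with H2AC6 in 2 and H4C16 in 1. H2AC11 at both times and H2BC21 and H2BC11 at 8 h kept theirs in LP-1.

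The lines differed in which clustered histone genes they held before treatment. In untreated Raji over untreated LP-1, 9 members were higher (18.0%) and 10 lower, in all 38.0% of the set. Of all probe sets, 6.79% were called higher, 17.5% lower and 24.3% in either direction. The count called lower, 10 of 50, is thus near the background, and the count called higher is above it. H3C11 read 10.33 and 10.51 in Raji, against 2.90 and 3.88 in LP-1. H2AC16 read 10.89 and 11.02 in Raji, against 6.61 and 6.55 in LP-1. Neither gene overlapped between lines on any of the 20 arrays, and all 10 LP-1 arrays of H3C11 lay at 4.74 or below. The log2 fold change was 7.03 ± 0.46 for H3C11 (adjusted p = 1.1e-07) and 4.38 ± 0.22 for H2AC16 (20.8-fold, adjusted p = 8.31e-09). H2AC16, H1-5, H3C11, H4C13 and H3C12 follow each other among the members along chromosome 6 and were all higher in Raji, by 4.38, 3.32, 7.03, 3.14 and 1.31. H2BC14 (2.83), H4C1 (1.59), H4C2 (1.43) and H2AC15 (1.17) were higher as well. In untreated LP-1 the values of H3C11 lay at percentiles 14.8 and 25.8 of their arrays. Those of H1-5 lay at 16.5 and 27.2, and those of H4C13 at 19.7 and 23.3. The values used carry no detection call, so whether such low levels are above background was not tested. The log2 fold changes of these 3 genes are therefore not exact folds.

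**Figure D5:**
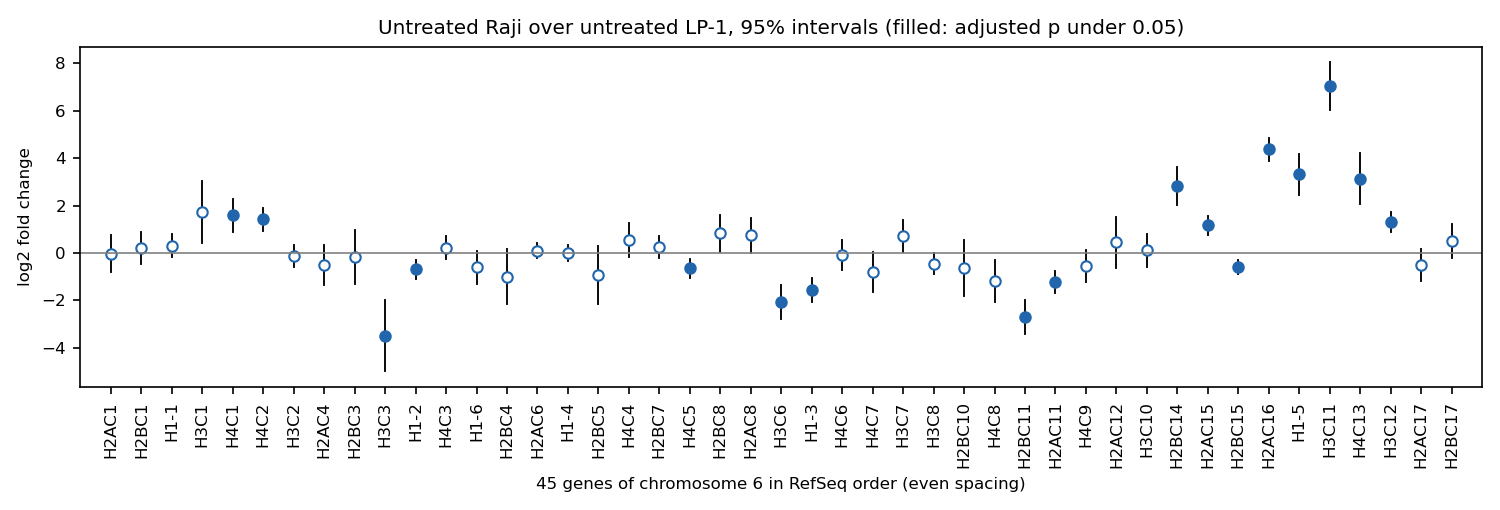
Log2 fold change of untreated Raji over untreated LP-1 (points) with 95% intervals (lines) for the 45 members on chromosome 6 in their order along the chromosome, evenly spaced; filled points have an adjusted p under 0.05. The run from H2AC16 to H3C12 near the right end lies above 0 with H3C11 at 7.03, while H3C3 and H2BC11 are the lowest points.

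Lower in Raji were H3C3 with 3.97 and 4.34, against 7.88 and 7.38 in LP-1, and H3C6 with 2.98 and 3.14, against 4.98 and 5.29. Their groups were far apart, with log2 fold changes of -3.48 ± 0.70 (adjusted p = 0.00209) and -2.08 ± 0.33 (adjusted p = 0.000364). The Raji values of H3C6 lay below the lower quartiles of their arrays (3.767 and 3.748), so its change is not an exact fold either. The plot of members by position gives these differences in chromosome order. H2BC11 (-2.70), H2AC11 (-1.21) and H2BC21 (-1.37), which responded to the inhibitor, were also lower in untreated Raji, as were H2AC21 (-1.57), H1-3 (-1.57), H1-2 (-0.68), H4C5 (-0.64) and H2BC15 (-0.60). The call for H4C5 was lost without any 1 of the 4 untreated arrays (adjusted p up to 0.127), and those for H2BC21, H1-2 and H2BC15 without 2, 2 and 1 of them (adjusted p up to 0.0621, 0.176 and 0.0587). Raji arrays of H2BC11 with the inactive enantiomer lay between percentiles 16.2 and 31.1 of their array, and the part of such low levels in the difference between lines was not tested.

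In a list of genes for histone transcription and mRNA processing, 21 of 32 were measured. ZNF473, the zinc finger protein of the U7 processing complex, fell by 0.93 ± 0.15 at 4 h in LP-1 (limma, adjusted p = 0.0083). SNRPF, a core protein of small nuclear RNPs, fell by 0.90 ± 0.23 at 8 h in LP-1 (limma, adjusted p = 0.0422). No other gene of that list was called in the 4 comparisons with the inactive enantiomer, where SLBP had 0.17, 0.35, 0.37 and -0.03. Medians of the list were -0.22, 0.13, 0.09 and -0.03. Averaged over both times, 1 gene of the list was lower in each line. Over untreated cells 4 and 3 were lower in LP-1 at 4 and 8 h, and 1 and 0 in Raji, with 0 higher. Of 20 measured histone chaperones and carriers, ASF1B, which hands H3 and H4 to assembly factors, was higher in LP-1 at 8 h (0.65 ± 0.15) and in Raji at 4 h (0.99 ± 0.15), and UBN1, part of the HIRA complex, in LP-1 at 8 h (0.62 ± 0.12). The list had medians of -0.14, 0.15, 0.12 and 0.04. With both times averaged 0 of these genes were called in LP-1 and 2 were higher in Raji. Over untreated cells 1 was lower in LP-1 at each time and 1 higher at 8 h.

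Genes of S phase entry and DNA replication were listed because clustered histone mRNA rises and falls with replication. Of 25 measured, UHRF1 (0.91 ± 0.15) and CCNE2 (0.66 ± 0.18) were higher in LP-1 at 8 h and CCNE1 (0.76 ± 0.17) in Raji at 4 h, and 0 were lower at a single time. With both times averaged, 2 were lower and 0 higher in LP-1, and 3 were higher and 0 lower in Raji. Over untreated cells 3 were lower and 0 higher in LP-1 at each time, and 0 were called in Raji. Medians of inhibitor over inactive enantiomer were -0.17 and 0.15 in LP-1 and 0.14 and -0.05 in Raji, below the members' medians in each comparison, with no test of the difference. Of 8 measured histone variants that are made outside S phase, 0 were called in these 4 comparisons by limma (2 in LP-1 and 1 in Raji with both times averaged), and their medians were 0.07, 0.31, 0.02 and 0.01. The part of replication in the members' values was not tested. MYC, the oncogene that BET inhibitors are known to lower, had log2 fold changes of -2.30 (4 h) and -1.85 (8 h) in LP-1, and of -1.40 at each time in Raji, and HEXIM1, an inhibitor of P-TEFb, was higher by 1.04, 1.45, 1.93 and 1.90.

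Of 11 genes of other families that lie among the chromosome 6 members and have a probe set, 0, 1, 0 and 0 were higher and 1, 2, 0 and 1 lower in LP-1 at 4 h, LP-1 at 8 h, Raji at 4 h and Raji at 8 h, with medians of -0.09, 0.01, -0.21 and 0.01. BTN3A2, a butyrophilin, had -0.82 (4 h) and -1.29 (8 h) in LP-1, and -0.70 at 8 h in Raji, all called. BTN3A3 fell by 1.34 in LP-1 at 8 h, and HFE, a regulator of iron uptake, was higher by 0.66.

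Array medians were 5.132 to 5.395. Replicates of a group had a Pearson's r of 0.973 to 0.989 over probe sets, which are not independent of each other. The lines matched their labels: 9 plasma cell genes had array medians at percentiles 50.3 to 73.8 in Raji and 86.7 to 92.9 in LP-1, and 7 B cell genes at percentiles 87.7 to 91.9 in Raji and 36.4 to 56.2 in LP-1. Of 7 T and NK cell genes, the 4 genes CD3D, CD3E, CD3G and CD2 lay under percentile 25 on every array, and the others did not. The same held for 2 of 5 myeloid genes (LYZ and S100A8). Among 7 genes of epithelial cells and fibroblasts it held for 2 (EPCAM and DCN), with array medians at percentiles 35.7 to 48.2 in LP-1 and 38.0 to 50.5 in Raji. Each p-value rests on 1 estimate of the spread pooled over all 10 groups, and leaving out 1 array in turn kept 5 of the 21 calls in every case: H2AC11 in LP-1 at 4 h, H2BC21, H2BC11 and H2AC11 in LP-1 at 8 h, and H2BC11 in Raji at 8 h.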

How the data were processed

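Total RNA from 20 cultures was amplified over the whole transcript, labelled with biotin and hybridised to human exon arrays, per the labels' protocols. The deposited values are log2 expression per probe set, made by the authors with RMA in Affymetrix Expression Console on hg19, per the submitters' processing notes, with versions not given in the sources used here. Gene names came from the platform annotation: of 22011 probe sets, 2408 carry several symbols and 5171 none. The deposited log2 values were used as given. limma 3.58.1 in R 4.3.3 fitted 1 mean per group over all 20 arrays, with 10 residual and 2.59 prior degrees of freedom, for 17 comparisons and 3 more that average 4 and 8 h, which were chosen after seeing the data. p-values were adjusted by Benjamini-Hochberg over all probe sets, called under 0.05, and the code was tested on simulated data. The members, the gene lists and the rule for named genes (values on every array for members called in any comparison of BET inhibitor over inactive enantiomer, and up to 3 further members per histone type by size of change, any member being open to naming) were chosen with earlier results of these data known. With 2 arrays per group the number of arrays limits the precision. Replicate numbers did not pair the arrays: correlations of same-numbered deviations were -0.035 to 0.121 in LP-1 and -0.16 to 0.051 in Raji. Promoter windows are from RefSeq (GRCh38.p14). Alternatives were array weights, quantile normalization, median centring, an intensity trend, a robust spread, a replicate block, 1 line alone, dropping the lowest probe sets and leaving out each array.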

Additional observations from a re-analysis of the deposited data

Results flagged for a closer look

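The response of H2AC11 to the BET inhibitor over its inactive enantiomer differed between the lines when 4 and 8 h were averaged, by -1.60 on the log2 scale in Raji minus LP-1 (adjusted p = 0.00599, limma). It stayed called without each array in turn, with 0.0228 as the highest adjusted p.

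Of the 5 probe sets that carry several symbols and hold a clustered histone gene, which belong to no member, 2 were called higher with the inhibitor in LP-1 at 4 h, 2 in LP-1 at 8 h, 2 in Raji at 4 h and 2 in Raji at 8 h. Their highest log2 fold changes were 3.69, 3.19, 2.32 and 2.34, and the lowest were 0.28, 0.36, -1.35 and -1.40. Which gene each of them reads cannot be told apart.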

How the results depend on the processing

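No called member changed direction under any setting, and of the 21 calls of BET inhibitor over inactive enantiomer 8 held under every setting other than leaving out an array. Counts of called members are given for the inhibitor over the inactive enantiomer unless named otherwise. With arrays of 1 line alone they were 2 in LP-1 at 4 h, 5 in LP-1 at 8 h and 0 in Raji at 4 h, and over untreated cells 0 and 1 in Raji at 4 and 8 h. Array weights came out equal for the 2 arrays of each group, so they cannot mark 1 poor array. At 4 and 8 h they were 0.531 and 0.721 for the inhibitor and 1.92 and 0.845 for the inactive enantiomer in LP-1. In Raji they were 1.27 and 1.06, and 0.749 and 0.819. With these weights the counts were 3 and 6 in LP-1 at 4 and 8 h, and over untreated cells 2 and 5 in Raji. Without the lowest probe sets (14674 left) they were 4 and 4 in Raji, 6 and 11 in LP-1 over untreated cells, and 1 and 1 for the difference between lines at 4 and 8 h. Quantile normalization gave 5 in Raji at 8 h, 11 in LP-1 at 8 h over untreated cells, and 1 and 1 for the difference between lines. An intensity trend, and likewise the replicate block, gave 4 in Raji at 8 h and 1 for the difference between lines at 8 h, and the block gave 5, 12 and 2 in LP-1 at 4 h, LP-1 at 8 h and Raji at 4 h. Leaving out 1 array gave 1 to 4 in LP-1 at 4 h (1 without either inactive array), 5 to 7 in LP-1 at 8 h, 0 to 2 in Raji at 4 h (0 without inhibitor replicate 2) and 1 to 2 in Raji at 8 h. Over untreated cells it gave 1 to 3, 4 to 7, 0 to 0 and 0 to 1, for the difference between lines 0 to 0 at 4 h and 0 to 1 at 8 h, for untreated lines 16 to 18, and for averaged times 10 to 15 in LP-1, 5 to 10 in Raji and 1 to 2 for their difference. Under settings other than leaving out an array, the members' median moved to 0.19 in Raji at 4 h with quantile normalization. For the inactive enantiomer over untreated LP-1 at 8 h it moved to -0.06 under quantile normalization and -0.04 with arrays centred on their medians. The cause of these moves was not tested. Medians with an array left out are not listed here.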

Other observations

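Of 8 measured genes that flank the chromosome 6 cluster, the olfactory receptor genes OR2B2 and OR2B6, beyond its last histone gene, are described because their values stood out. Of the others, SLC17A1, SCGN, CARMIL1, ZNF165 and ZKSCAN8 were not called with the inhibitor against the inactive enantiomer in either line or at either time. RIPOR2 was lower in Raji by limma at 4 h (-0.89, adjusted p = 0.00913) and 8 h (-0.62, adjusted p = 0.0432). OR2B6 read 5.92 and 6.96 with the BET inhibitor in LP-1 at 4 h, against 3.06 and 3.65 with the inactive enantiomer, and 6.70 and 6.74 at 8 h, against 2.83 and 4.39. In Raji it read 4.80 and 5.41 with the inhibitor at 4 h, against 2.58 and 1.58 with the inactive enantiomer, and 4.44 and 4.91 at 8 h, against 2.28 and 2.58. The groups did not overlap, and the fitted log2 fold changes were 3.09, 3.11, 3.03 and 2.24, all called by limma (adjusted p = 0.00832, 0.00455, 0.0124 and 0.0452). All inactive arrays but LP-1 replicate 2 at 8 h lay below the lower quartile of their array (3.734 to 3.892 over the 20 arrays), and whether such levels are above background was not tested, so these are not exact folds. OR2B2, the nearer of the pair, had 2.19 in LP-1 at 4 h (limma, adjusted p = 0.0587) and 0.36 and 0.03 in Raji. It was called in LP-1 at 8 h with a value of 2.42 (limma, adjusted p = 0.0212). Its LP-1 arrays read 4.21 and 4.76 with the inhibitor at 4 h and 5.77 and 4.83 at 8 h. With the inactive enantiomer they read 1.87 and 2.73, and then 2.72 and 3.05. These inactive values also lay below the lower quartiles of their arrays, so the LP-1 changes are not exact folds either.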
